A study of Komagataella phaffii with 15 samples.

Results

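*FLO100* (PP7435_Chr1-1587), *FLO200* (PP7435_Chr3-1226) and *FLO300* (PP7435_Chr4-1020) are members of the flocculin gene family of the methylotrophic yeast *Komagataella phaffii*. They were taken by their locus tags and are 3 of the 5341 transcripts counted. Their transcripts are 1611, 1422 and 2040 bases long in the order *FLO100*, *FLO200*, *FLO300*. The study asked how *FLO* transcript levels follow the growth rate, and which *FLO* genes depend on the transcription factor Flo8. Both strains are haploid CBS7435 and were grown on chemostat medium with glucose as the limiting nutrient and measured by poly-A RNA-Seq. In the *Δflo8* strain (genotype delta-flo8) the promoter directly upstream of *FLO8* and the start of its open reading frame had been removed. It was sampled at a growth rate of 0.1 h-1 (S1) and at 0.05 h-1 (S3). The wild type was sampled at 0.1 h-1 (S1), at 0.05 h-1 (S3) and after the switch back to 0.1 h-1 (S5). Each of the 5 groups has 3 replicates, each set point was held for 5 residence times, and a chemostat passed through its set points in turn, so the groups of a strain may share cultures. The *Δflo8* strain is a single constructed strain and was not sampled at S5.

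Flocculins are cell wall proteins through which yeast cells stick to each other and to surfaces. In *Saccharomyces cerevisiae* many *FLO* genes sit near chromosome ends, where silencing can switch them on in some cells and off in others, and Flo8 is an activator of several of them. The proteins of *FLO100*, *FLO200* and *FLO300* carry a PA14/GLEYA domain, a carbohydrate binding domain of fungal adhesins, and the genes are placed next to telomeres in the study's gene map.

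Between 4163342 and 10843287 reads per library (median 9310698) stood behind the deposited tables, and the lowest totals were in *Δflo8* S1 replicate 2 and wild-type S1 replicate 3. Levels are given as TPM, a read count scaled by transcript length and by library depth and computed from these reads, and 3 reads of *FLO100* correspond to 0.146 to 0.360 TPM, which is used here as the limit of detection and covers counting error only. The *FLO8* reads do not test the strain label, because only the start of the gene is removed: *FLO8* had 24.1, 28.5 and 31.9 TPM in *Δflo8* S1, against 36.7, 32.8 and 39.2 TPM in wild-type S1. *FLO11*, the flocculin gene known as a Flo8 target in *S. cerevisiae*, separated the strains, with 0.17 to 0.45 TPM in *Δflo8* S3, against 38.0 to 79.0 TPM in wild-type S3.

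The 3 genes behaved in 3 different ways. In the wild type, *FLO300* was higher at slow growth and after the return to fast growth than at S1, *FLO100* was near the limit of detection at S1 and had 6.12 and 9.85 TPM in 2 of 3 S3 libraries and 94.1 TPM in a single S5 library, and *FLO200* stayed between 4.67 and 10.4 TPM in all wild-type libraries. In the reads behind the tables of *Δflo8*, *FLO300* was higher at slow growth as well, *FLO200* was lower, and no read of *FLO100* was found at S3. In the stranded per-library estimates alone, *FLO300* was lower at slow growth in *Δflo8*, and its difference in the wild type was negative but did not pass. The differences of *FLO200* in these estimates were negative in both strains and did not pass. The estimates held only 5.06% to 6.11% of the reads behind the tables. Whether they measure the genes' own transcripts was not tested. In a bulk culture, fewer cells that express a gene and less RNA per cell cannot be told apart.

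**Figure D1:**
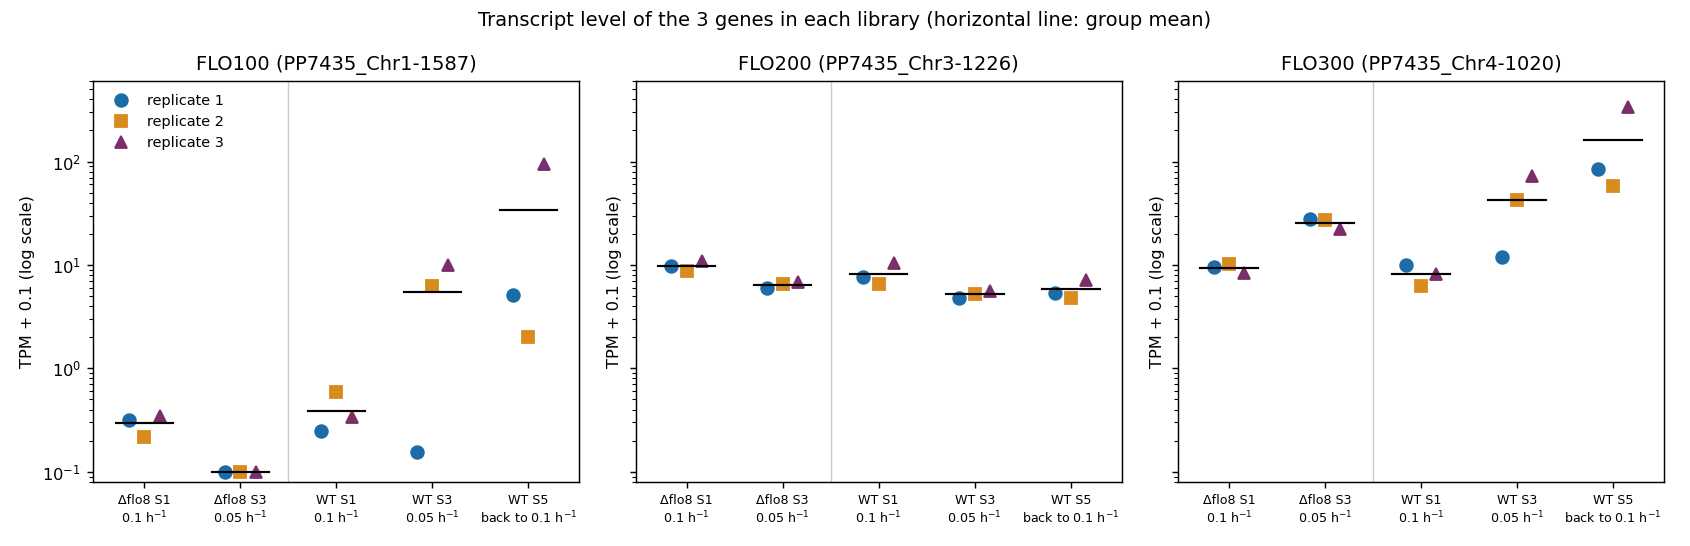
Transcript level of *FLO100*, *FLO200* and *FLO300* in every library, as TPM + 0.1 on a log scale, by strain and sampling point. Symbols mark the replicate number and horizontal lines the group mean. *FLO300* at S3 and S5 of the wild type and *FLO100* at the same points spread widely between replicates, while *FLO200* lies between 4.67 and 10.8 TPM in all 15 libraries.

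*FLO300* had 9.84, 6.17 and 8.0 TPM in wild-type S1, 11.8, 42.8 and 72.2 TPM in S3, and 84.9, 58.2 and 340.0 TPM in S5. All S3 and all S5 libraries lay above all S1 libraries, as did those of 25.3% and 15.6% of tested genes, whereas S3 and S5 overlapped, and replicate 1 of S3 was only just above the highest S1 value. The group means were 8.0 ± 1.84 TPM at S1, 42.3 ± 30.2 TPM at S3 and 161 ± 156 TPM at S5 (SD, n = 3 each). The mean of S3 was 5.28-fold that of S1, and the mean of S5 was 20.1-fold that of S1 and 3.81-fold that of S3. Single libraries carried these ratios. Without S5 replicate 3 the S5 mean was 71.5 TPM, 8.94-fold that of S1 and 1.69-fold that of S3, and without S3 replicate 3 the S3 mean was 27.3 TPM, 3.41-fold that of S1.

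In limma on log2(normalized count + 1), *FLO300* was higher at S3 than at S1 by 2.10 ± 0.55 (SE) on the log2 scale, with an adjusted p of 0.0220. It was one of the 1.11% of tested genes that were called higher there, meaning a log2 fold change above 1 together with an adjusted p under 0.05. At S5 it was higher than at S1 by 4.03 ± 0.52 (limma, adjusted p = 0.0203), where 0.0941% of genes were called higher. S5 did not pass against S3 (log2 fold change 1.91 ± 0.73, limma adjusted p = 0.0706). Both comparisons with S1 use the same 3 S1 libraries. Without S3 replicate 2, S3 replicate 3 or S1 replicate 1 the difference of S3 from S1 was 1.92, 1.55 and 2.26 with limma adjusted p of 0.0763, 0.0601 and 0.0554. Without S1 replicate 1 or S5 replicate 1 the difference of S5 from S1 was 4.19 and 4.26 with adjusted p of 0.0932 and 0.0675.

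In *Δflo8*, *FLO300* had 27.9, 26.9 and 21.9 TPM at S3, against 9.44, 10.2 and 8.34 TPM at S1. The groups did not overlap, as in the 22.5% of tested genes that lay wholly higher. The S3 libraries lay closer together than those of wild-type S3. The mean at S3, 25.6 ± 3.20 TPM, was 2.75-fold the mean at S1, 9.32 ± 0.925 TPM (SD, n = 3 each). The log2 fold change was 1.33 ± 0.12 with a limma adjusted p of 1.88e-05, and 0.32% of genes were called higher in this comparison. In the stranded estimates alone it was -0.56 ± 0.13 (edgeR adjusted p = 0.00692). With the spread shared over all 15 libraries in a single limma fit, in which the wild-type libraries widen it, the value was 1.35 with an adjusted p of 0.0940.

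Between the strains, *FLO300* was not shown to differ at either set point in the reads behind the tables. At S1, 15.1% of tested genes passed higher and 15.7% lower in *Δflo8*. At S1 the *Δflo8* libraries had 8.34 to 10.2 TPM, against 6.17 to 9.84 TPM in the wild type, a log2 difference of 0.33 ± 0.16 (limma adjusted p = 0.138). At S3 the *Δflo8* libraries, with 21.9 to 27.9 TPM, lay between wild-type replicate 1 (11.8 TPM) and replicate 2 (42.8 TPM), and the difference was -0.44 ± 0.46 (limma adjusted p = 0.436). This value rests on single wild-type libraries: without wild-type S3 replicate 1 it was -1.17 with an adjusted p of 0.000137, and without replicate 3 it was 0.11 with an adjusted p of 0.820. How far the strains' responses to slow growth differ, given by an interaction term fitted over the 12 libraries of S1 and S3, was -0.77 ± 0.62 for *FLO300* (limma adjusted p = 0.466), and 2.3% of genes passed above and 2.99% below 0 in this term. Without wild-type S3 replicate 1 it was -1.50 with an adjusted p of 0.0215. In the stranded estimates alone, *FLO300* was higher in *Δflo8* than in the wild type at S1 and S3 (1.18 and 1.15, edgeR adjusted p = 0.000442 and 2.15e-06). In the reads less these estimates it was lower in *Δflo8* at S1 (-2.12, edgeR adjusted p = 0.0195).

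*FLO100* was the least expressed of the 3 genes at S1. It had 3, 10 and 2 reads in wild-type S1, 1, 110 and 168 reads in S3, and 94, 36 and 1626 reads in S5. This corresponds to 0.146, 0.485 and 0.240 TPM in S1, 0.0547, 6.12 and 9.85 TPM in S3, and 5.00, 1.90 and 94.1 TPM in S5. All S5 libraries lay above all S1 libraries, as did those of 15.6% of tested genes. Of the 3 S1 libraries, 2 held 3 reads or fewer. S3 replicate 1 lay below all S1 libraries and the other S3 replicates above. Replicate 3 of S5 held 1626 of the 1756 reads of that group, and the mean TPM at S5 was 33.7 ± 52.4 (SD, n = 3) with it and 3.45 without it.

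The mean of *FLO100* at S5 was 116-fold the mean at S1, and the log2 difference was 5.02 ± 1.2 with a limma adjusted p of 0.0593. *FLO100* had 2 to 10 reads per library at S1. It entered this test only through the S5 libraries, where it was high, so the p of this difference is no independent support. With the replicate number as a block, the same difference had a limma adjusted p of 0.0465. The replicate numbers of these groups pair the libraries by the correlation of their deviations alone, which was only 0.13 to 0.19, so this pairing is uncertain. S5 was not shown to differ from S3 (log2 fold change 2.44 ± 1.83, limma adjusted p = 0.319). In S3 against S1 of the wild type, *FLO100* reached 10 normalized counts in fewer than 3 libraries and was not tested. Its mean was 5.34 ± 4.94 TPM at S3 against 0.291 ± 0.175 TPM at S1 (SD, n = 3 each), and edgeR on the reads without that minimum, added after the data had been seen, gave a log2 fold change of 4.09 ± 1.25 (adjusted p = 0.0362). limma without the minimum gave 2.58 ± 1.48 (adjusted p = 0.213).

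In *Δflo8*, *FLO100* had 0, 0 and 0 reads at S3, against 4, 1 and 5 reads at S1. At S3 a count of 0 allows up to 0.156 TPM per library on average, and the S1 mean of 0.194 TPM lay under the S1 limit of 0.222 TPM, so no fold is given. Without the minimum count the adjusted p of this difference was 0.0296 in limma and 0.0232 in edgeR, on 10 reads in all. *Δflo8* S3 was lower than wild-type S3, where the 3 libraries held 1, 110 and 168 reads. Set against the limit of 3 reads per library, the mean of *FLO100* was at least 34.3-fold lower in *Δflo8* S3 than in wild-type S3. Without wild-type S3 replicate 3 this bound was 19.8-fold, and without replicate 1, which at 0.0547 TPM lay itself under the limit, it was 51.3-fold. All *Δflo8* S3 libraries lay below all wild-type S3 libraries, as did those of 30.6% of tested genes, and the lowest wild-type library, replicate 1, held a single read. An exact permutation test, two-sided on log2 TPM, gave a p of 0.1, the smallest that 3 against 3 libraries allow. *FLO100* stood under the minimum count here too, and limma without it gave an adjusted p of 0.00526, edgeR without it 0.00473. At S1 the strains held 10 reads in *Δflo8* and 15 in the wild type over 3 libraries each, and a difference was not detectable at this depth. The interaction was not tested for *FLO100* in the main fit, and without the minimum its adjusted p was 0.107 in limma and 0.222 in edgeR.

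In the reads behind the tables, *FLO200* was expressed at a low level in all groups and was lower at slow growth in both strains. The stranded estimates held 71.4% of its reads over all libraries. In them alone neither difference passed, with -0.26 in the wild type and -0.44 in *Δflo8* (edgeR adjusted p = 0.375 and 0.0966). In the wild type it had 7.50, 6.40 and 10.4 TPM at S1, 4.67, 5.13 and 5.47 TPM at S3, and 5.27, 4.69 and 7.11 TPM at S5. All S3 libraries lay below all S1 libraries, as did those of 25% of tested genes, and S5 overlapped both. The means were 8.09 ± 2.05 TPM at S1, 5.09 ± 0.401 TPM at S3 and 5.69 ± 1.26 TPM at S5 (SD, n = 3 each). S3 was lower than S1 by a log2 fold change of -0.61 ± 0.16, with a limma adjusted p of 0.0222, and 16.7% of tested genes passed lower. Without S3 replicate 1, 2 or 3 or S1 replicate 1 the adjusted p was 0.0750, 0.0740, 0.0504 and 0.0567, and the change was between -0.65 and -0.56.

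In the reads behind the tables, *FLO200* at S5 was not shown to differ from S1 (-0.37 ± 0.19, limma adjusted p = 0.241) or from S3 (0.21 ± 0.15, adjusted p = 0.297). In the reads less the stranded estimates, S5 was lower than S1 (-1.64 ± 0.32, edgeR adjusted p = 0.0354). S5 did not pass against S3 in those reads (-0.22 ± 0.33, adjusted p = 0.633). In *Δflo8*, *FLO200* had 5.84, 6.41 and 6.69 TPM at S3, against 9.72, 8.58 and 10.8 TPM at S1, without overlap, as in 23% of tested genes that lay wholly lower. The S3 mean of 6.31 ± 0.43 TPM was 0.651 of the S1 mean of 9.70 ± 1.11 TPM (SD, n = 3 each). The log2 fold change was -0.73 ± 0.13 with a limma adjusted p of 0.00131, and 16.8% of genes passed lower in this comparison.

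The strains did not differ past the threshold in *FLO200*. At S1 it had 8.58 to 10.8 TPM in *Δflo8*, against 6.40 to 10.4 TPM in the wild type, with a log2 difference of 0.38 ± 0.17 (limma adjusted p = 0.122). At S3 the *Δflo8* libraries, from 5.84 to 6.69 TPM, all lay above the wild-type libraries, from 4.67 to 5.47 TPM, as did those of 29.9% of genes, and the log2 difference was 0.25 ± 0.13 (adjusted p = 0.115). Without wild-type S1 replicate 3, a shallow library, the difference at S1 was 0.53 with an adjusted p of 0.0171. The interaction was -0.13 ± 0.20 (limma adjusted p = 0.738), the *FLO200* response to slow growth thus differing between the strains by less than its error.

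In the order of group means, *FLO100* ran wild-type S5, S3 and S1, then *Δflo8* S1 and S3. Only the last neighbours in that order did not overlap, beside 23% of tested genes that lay wholly lower there. Both of these *FLO100* means lay under the limit of detection, with 10 and 0 reads in all, so this step is below what can be measured. *FLO300* ran wild-type S5, wild-type S3, *Δflo8* S3, *Δflo8* S1 and wild-type S1. Only *Δflo8* S3 and *Δflo8* S1 were separated, as in 22.5% of tested genes. *FLO200* ran *Δflo8* S1, wild-type S1, *Δflo8* S3, wild-type S5 and wild-type S3, with overlap between all neighbours.

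The replicates of the wild type at S3 and S5 differed more in *FLO100* and *FLO300* than in nearly all other genes. Over 5316 genes, the SD of log2(TPM + 1) among the 3 libraries of wild-type S3 was largest for *FLO100* (1.79) and next largest for *FLO300* (1.29), beside a median of 0.071 over all genes. At wild-type S5, *FLO100* again had the largest SD (2.66) and *FLO300* ranked 5 (1.33), beside a median of 0.13. In *Δflo8* S3 the SD of *FLO300* was 0.18, beside a median of 0.11. For *FLO200* the SD was between 0.09 and 0.32 in the 5 groups.

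The high and low libraries were the same for *FLO100* and *FLO300* at S3 and S5. Replicate 1 was lowest at S3 and replicate 2 at S5, and replicate 3 was highest at both. *FLO200* had the same lowest and highest libraries within a narrow range. In the 6 libraries of wild-type S3 and S5, the log2(TPM + 1) of *FLO100* had a Pearson r of 0.97 with *FLO200* and 0.93 with *FLO300*. The Spearman rho was 0.94 and 0.71, so the shared order was not particular to *FLO100* and *FLO300*. Over the 15 libraries the log2(TPM + 1) of *FLO100* and *FLO300* had a Pearson r of 0.87 and a Spearman rho of 0.41, and r was 0.70 without wild-type S3 replicate 3 and S5 replicate 3. Over the 9 wild-type libraries r was 0.93 and rho 0.75. Both genes are read from the same libraries with the same depth scaling, and within groups the points are few, so these values are descriptions. The levels did not keep a fixed ratio: *FLO300* was 6.98-fold and 7.33-fold the TPM of *FLO100* in replicates 2 and 3 of S3, and 17.0-fold, 30.6-fold and 3.61-fold in replicates 1, 2 and 3 of S5.

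**Figure D2:**
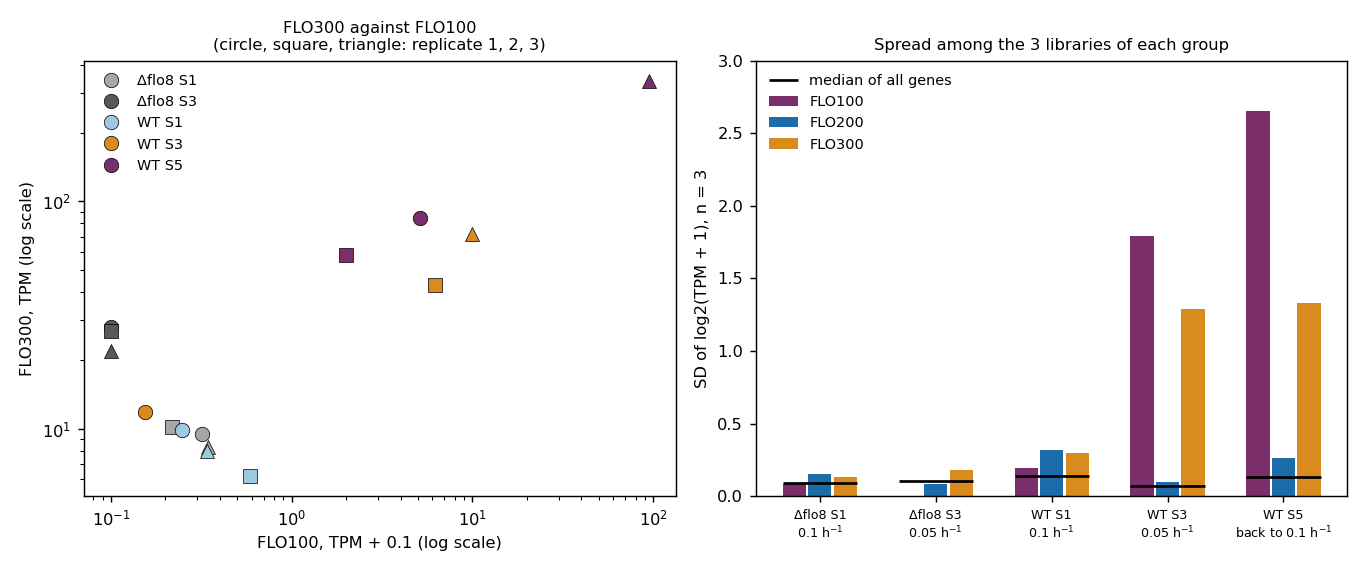
Left, TPM of *FLO300* against TPM + 0.1 of *FLO100* in each of the 15 libraries, both on log scales, with colours for the groups and symbols for the replicates. Right, the SD of log2(TPM + 1) among the 3 libraries of each group, with a black line at the median over 5316 genes. *FLO100* reaches an SD of 1.79 at wild-type S3 and 2.66 at S5, and *FLO300* 1.29 and 1.33.

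Genes next to *FLO300* by locus tag shared its pattern in part. The gene 2 tags before it, PP7435_Chr4-1018, is not named in the files. It had 0.93, 0.39 and 0.48 TPM in wild-type S1, 1.43, 6.06 and 8.68 TPM in S3, and 13.2, 9.75 and 50.1 TPM in S5. Its replicates stood in the same order as those of *FLO300* at S3 and S5. In *Δflo8* it had 4.38, 5.21 and 4.36 TPM at S3, against 0.66, 0.71 and 0.89 TPM at S1. Its log2 fold change was 2.81 ± 0.63 for S3 against S1 of the wild type (limma adjusted p = 0.0122), 5.02 ± 0.55 for S5 against S1 (0.0114), 2.19 ± 0.72 for S5 against S3 (0.0414) and 2.43 ± 0.23 for S3 against S1 of *Δflo8* (2.87e-05).

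PP7435_Chr4-1019, directly before *FLO300* in tag number, had 17.9, 44.2 and 64.5 TPM in wild-type S3 and 66.6, 42.4 and 169 TPM in S5, against 33.0, 23.0 and 30.9 TPM in S1. Its libraries at S3 and S5 stood in the same order as those of *FLO300*, but none of its wild-type comparisons passed (limma adjusted p from 0.0655 to 0.451). In *Δflo8* it fell at slow growth, to 32.9, 32.7 and 33.6 TPM at S3, against 40.4, 42.5 and 49.6 TPM at S1 (log2 fold change -0.53 ± 0.09, limma adjusted p = 0.00135). Most of its *Δflo8* reads were in the stranded estimates, 60.7% at S3 against 97.1% at S1, and the reads left after subtracting them gave the other direction, with a mean of 13.6 TPM at S3 against 1.62 TPM at S1. PP7435_Chr4-1017, one tag further away, lay between 44.2 and 59.9 TPM at wild-type S3 and S5. Of the 11 genes within 10 tag numbers of *FLO300*, all tested, 1 passed higher and 3 lower for S3 against S1 of the wild type, beside 16.1% and 16.7% of all genes. For S5 against S1, 2 passed higher and 2 lower, beside 1.34% and 2.2%.

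Next to *FLO100*, the gene directly before it, PP7435_Chr1-1586, had reads only in libraries with 36 or more reads of *FLO100*. It had 0, 3 and 4 reads at wild-type S3 and 5, 2 and 20 reads at wild-type S5, against 0 reads in all libraries of wild-type S1, *Δflo8* S1 and *Δflo8* S3, and it was too low to be tested. PP7435_Chr1-1585, a further tag away, had 13.3 TPM in wild-type S5 replicate 3, where *FLO100* was highest, and 4.33 to 7.06 TPM in the other 14 libraries. Of the 10 genes within 10 tags, all numbered before *FLO100*, 9 were tested, 4 passed higher and 0 lower for S3 against S1 of the wild type, beside 16.1% and 16.7% of all genes, and for S5 against S3 0 passed higher and 6 lower, beside 18% and 20.8% of all genes. The next tag in the tables after *FLO100* is number 1598, outside the range used.

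**Figure D3:**
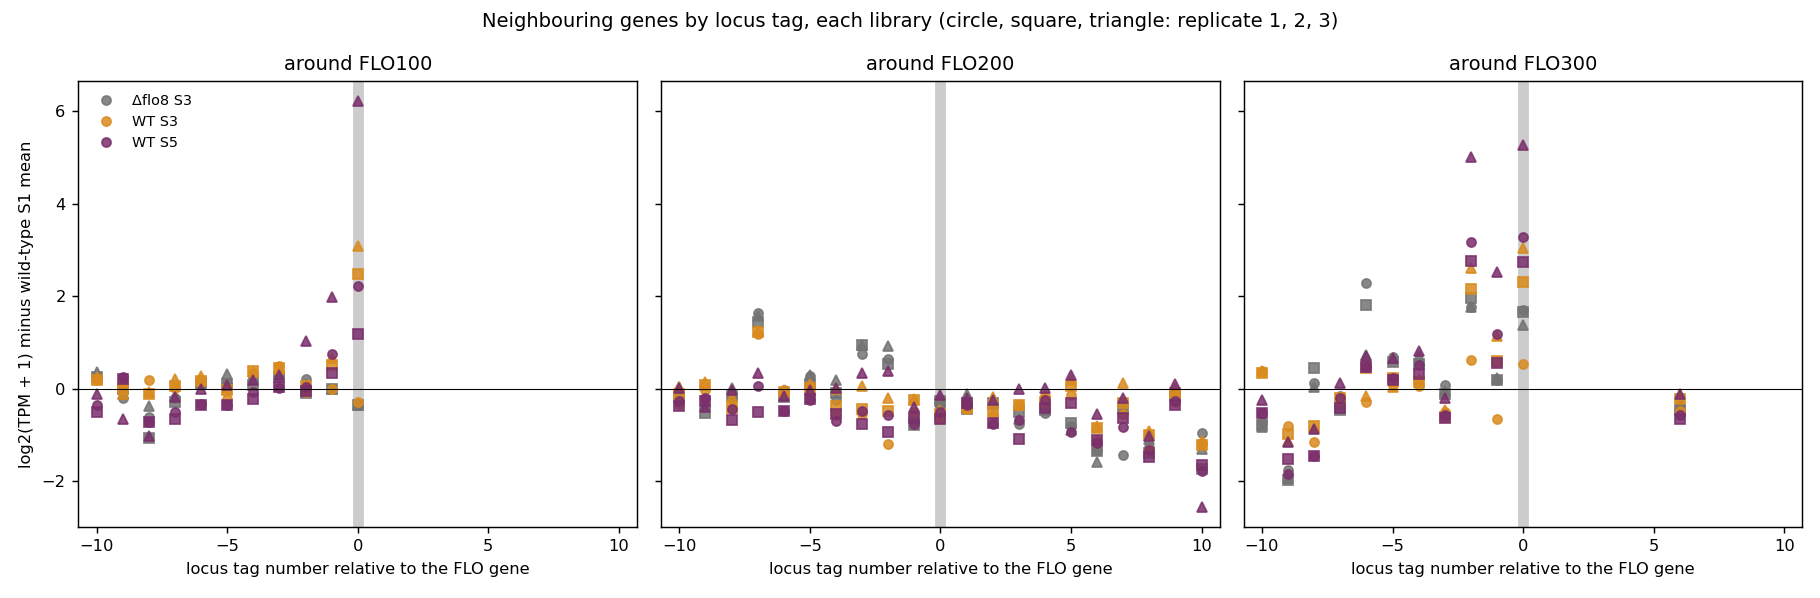
Difference of log2(TPM + 1) from the wild-type S1 mean for each gene within 10 locus tag numbers of *FLO100*, *FLO200* and *FLO300* (grey bands), in each library of *Δflo8* S3, wild-type S3 and wild-type S5. Symbols mark replicates. In wild-type S5 replicate 3 the highest values are those of *FLO100*, *FLO300* and the tag 2 before *FLO300*, and the values of *FLO200* lie below 0 in all libraries shown.

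*FLO200* stood among genes with a mixed response. Of the 20 genes within 10 tags, all tested, 1 passed higher and 5 lower for S3 against S1 of the wild type, beside 16.1% and 16.7% of all genes, and 2 higher and 11 lower in *Δflo8*, beside 14.7% and 16.8% of all genes. The median log2 fold change of these 20 genes was -0.32 in the wild type and -0.34 in *Δflo8*, beside 0.01 and 0.00 over all tested genes. PP7435_Chr3-1228, 2 tags after *FLO200* and taken here as the flocculin gene *FLO5-2*, fell with it in the reads behind the tables. Its log2 fold changes were -0.41 ± 0.12 in the wild type (limma adjusted p = 0.0296) and -0.34 ± 0.08 in *Δflo8* (0.0105). The stranded estimates held 91.8% of its reads over all libraries, beside 71.4% for *FLO200* and a median of 2.79% over all genes. On the other side, PP7435_Chr3-1222, PP7435_Chr3-1223 and PP7435_Chr3-1224 were higher in *Δflo8* than in the wild type at S1, by 1.69 ± 0.26, 2.00 ± 0.30 and 1.43 ± 0.17 (limma adjusted p = 0.00224, 0.00188 and 0.000732), against 0.38 ± 0.17 for *FLO200*, which did not pass. PP7435_Chr3-1219, 7 tags before *FLO200*, rose at slow growth in both strains, by 1.27 ± 0.12 in the wild type and 2.00 ± 0.16 in *Δflo8* (limma adjusted p = 0.000559 and 8.00e-06).

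Over all 5316 genes and 15 libraries, the genes with a pattern most like *FLO300* by Pearson r of log2(TPM + 1) were PP7435_Chr4-1018 (0.99), *FLO100* (0.87) and PP7435_Chr4-1019 (0.80). *FLO100* was nearest to *FLO300* (0.87), PP7435_Chr4-1019 (0.87) and PP7435_Chr4-1018 (0.82). The genes most like *FLO200* lay elsewhere in the genome: PP7435_Chr2-0990 (0.95), PP7435_Chr3-0341 (0.92) and PP7435_Chr3-0505 (0.90). PP7435_Chr2-0990 had 345 to 483 TPM at wild-type S3 against 527 to 777 TPM at S1, and fell there (-0.58 ± 0.13, limma adjusted p = 0.0143). These correlations are across libraries of 5 groups that share depth scaling and group differences. The estimated counts of PP7435_Chr4-1018, summed by group, ran from 2.30 to 16.3 and were not whole in any group. This happens where kallisto divides reads between transcripts. Whether divided reads enter these correlations was not tested.

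The other 10 genes that the study counts among the *FLO* family were described as a list. For S3 against S1 of the wild type, 1 of the 10 passed higher and 4 lower, beside 16.1% and 16.7% of all genes, with a median log2 fold change of -0.28 beside 0.01 over all genes. The one that rose was *FLO11* (3.36 ± 0.53, limma adjusted p = 0.00318), and the gene taken as *FLO5-1*, PP7435_Chr1-1389, fell (-1.66 ± 0.11, adjusted p = 0.000343). At S5, *FLO11* fell against S3 (-1.58 ± 0.24, limma adjusted p = 0.00163), where *FLO300* had a difference of 1.91 that did not pass. Between the strains at S3, 0 of the 10 passed higher and 4 lower in *Δflo8*, among them *FLO11* (-7.59 ± 0.30), *FLO400* (-4.01 ± 0.13) and *FLO5-1* (-3.86 ± 0.06), beside 25.8% and 27.5% of all genes. *FLO200* and *FLO300* passed in neither direction there in the reads behind the tables.

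The per-library estimates, made with a stranded setting according to their labels, held 5.06% to 6.11% of the reads behind the tables, and the share differed strongly between the 3 genes. Summed over all libraries it was 0.322% for *FLO100*, 71.4% for *FLO200* and 9.55% for *FLO300*, beside a median of 2.79% over 5316 genes. For *FLO300* the share was 82.1% to 97.0% in *Δflo8* S1 and 19.0% to 28.2% in *Δflo8* S3. In the wild type it was 39.4% to 64.4% at S1, 3.36% to 24.8% at S3 and 1.21% to 4.05% at S5. For *FLO200* it was 53.9% to 87.2% in all libraries. The estimates held 0.645% of the reads of *FLO400* over all libraries and 0.365% of those of *ACT1* in wild-type S1. They held 91.8% for *FLO5-2* and 96.5% for PP7435_Chr4-1013 over all libraries. They are therefore not taken as an equal measure of the genes' own transcripts. The strand setting behind the tables is not given in the sources used here. Without it, reads of a gene and of a transcript on the opposite strand cannot be told apart. Which strand the estimates hold was not tested.

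The choice of reads turned the direction for *FLO300*. In the estimates alone, *FLO300* was lower at S3 than at S1 in *Δflo8* (-0.56 ± 0.13, edgeR adjusted p = 0.00692), and it was higher in *Δflo8* than in the wild type at S1 (1.18 ± 0.17, adjusted p = 0.000442) and at S3 (1.15 ± 0.16, adjusted p = 2.15e-06). In the wild type its estimates gave -0.54 ± 0.19 for S3 and -0.23 ± 0.22 for S5 against S1 (edgeR adjusted p = 0.0941 and 0.653). In the reads left after subtracting the estimates, *FLO300* had 1.12, 1.93 and 0.241 TPM in *Δflo8* S1, against 6.26, 3.11 and 2.95 TPM in wild-type S1. The log2 difference in these remaining reads was -2.12 ± 0.54 (edgeR adjusted p = 0.0195). In the same reads the mean of *FLO300* at S3 was 18.6-fold that at S1 in *Δflo8* and 10.1-fold in the wild type, and at S5 it was 40.3-fold that at S1. *FLO300* estimates were not whole numbers in 15 of 15 libraries, as happens where kallisto divides reads between transcripts, against 3 of 15 for *FLO100* and 0 of 15 for *FLO200*.

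**Figure D4:**
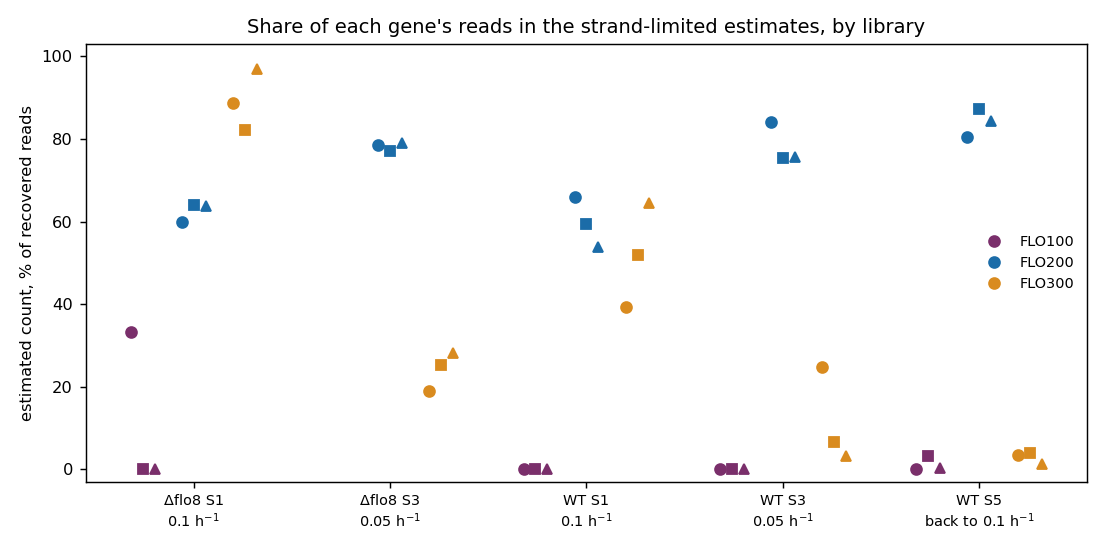
Estimated count from the stranded per-library files as a percentage of the reads behind the tables, for *FLO100*, *FLO200* and *FLO300* in each library, by group. Symbols mark replicates, and *FLO100* has no point in *Δflo8* S3, where it has 0 reads. The share of *FLO300* is 82.1% to 97.0% in *Δflo8* S1 and 1.21% to 4.05% in wild-type S5.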

How the data were processed

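Poly-A RNA of 15 samples (3 biological replicates in each of 5 groups) was sequenced as single reads. The authors trimmed the reads with Trim Galore 0.4.2 and ran kallisto 0.43.1 against transcripts of the CBS7435 annotation, from which they deposited estimated counts and TPM for each library. The deposited TPM column of 1 library, wild-type S1 replicate 1, was deposited by the authors as a fraction of a total of 1. A further 6 tables, each of 6 libraries, were deposited with normalized counts, a signal made from counts by DESeq2 1.14.1 after tximport.

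Each column is a multiple of a step, after a length factor of at most 0.147% was undone in 12 columns. Dividing by it gave reads: 100% of values came out whole to within 0.01, and 0 genes differed between tables. TPM were computed from these reads and kallisto's effective lengths.

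limma 3.58.1 in R 4.3.3 (trended variance, two-sided) was fitted to log2(normalized count + 1) table by table, for genes reaching 10 normalized counts in 3 or more libraries, with Benjamini-Hochberg adjustment over all genes tested. Alternatives used edgeR 4.0.16 and DESeq2 1.42.0 on rounded estimates or on reads, no minimum count, other pseudocounts, all 15 libraries in 1 fit, a replicate block, and each library left out in turn. On simulated counts for 5307 genes limma called 200 of 200 genes changed by a log2 fold of 2 and 0 unchanged genes for S3 against S1 of the wild type. The simulated counts had a small fixed dispersion, and the changed genes were drawn from well-covered ones. This check therefore does not cover genes that vary between replicates like *FLO100* and *FLO300*, or with counts as low as those of *FLO100*. Replicate numbers were taken to pair the samples of wild-type S1 and S5, where the correlations of same-numbered deviations were only 0.13, 0.18 and 0.19. For S1 and S3 they were 0.08, -0.03 and 0.09, although a chemostat passed through S3 between S1 and S5. This pairing is therefore uncertain. In every other pair of groups compared at least 1 correlation was under 0.1.

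Named genes were the 3 genes, the 10 other *FLO* genes, *FLO8*, *ACT1*, neighbours within 10 tag numbers, and the 5 most similar genes of each. PP7435_Chr1-1389 was taken as *FLO5-1* and PP7435_Chr3-1228 as *FLO5-2*. The paper prints these tags with chromosomes 3 and 1 exchanged, the tables hold tag number 1389 on chromosomes 1 and 4 alone, and the match to these gene names was not tested. The genes and lists were chosen with earlier results of these data known. Lists of regulators and silencing factors could not be applied, since 0 of the tags matched the annotation at hand, and no sequences or coordinates are given for the same reason.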

Additional observations from a re-analysis of the deposited data

How the results depend on the processing

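Of the tested differences of *FLO100*, *FLO200* and *FLO300*, 184 values under the alternatives that keep all libraries stayed on the same side of the threshold and in the same direction, 4 lost the threshold, 7 gained it and 9 reversed. The cause was not tested. In edgeR on the estimated counts the log2 fold change for S3 against S1 of the wild type was -0.26 for *FLO200* and -0.54 for *FLO300*. For S5 against S1 it was 0.12 for *FLO200* and -0.23 for *FLO300*, and none of these wild-type differences passed. In *Δflo8*, S3 against S1, it was -0.44 for *FLO200*, which did not pass (adjusted p = 0.0966), and -0.56 for *FLO300*. For *FLO300* in *Δflo8* against the wild type it was 1.18 at S1 and 1.15 at S3. In edgeR on the reads less these estimates, *FLO200* was at -0.22 for S5 against S3 and -1.64 for S5 against S1. The latter passed (adjusted p = 0.0354). In the same reads *FLO300* was at -2.12 for *Δflo8* against the wild type at S1, and the interaction was -8.92 for *FLO100* and 1.12 for *FLO300*. In limma on log2(TPM + 1), *FLO200* had -0.56 for S3 against S1 of the wild type (adjusted p = 0.0578) and an interaction of 0.011. With all 15 libraries in 1 fit, *FLO300* passed for S5 against S3 (1.91) and not for S3 against S1 of *Δflo8* (1.35), and *FLO100* passed for S5 against S1 (5.03). DESeq2 gave 6.85 for that difference of *FLO100* (adjusted p = 0.000408), where the gene reached the minimum count only through its S5 libraries. edgeR without the minimum count, added after seeing the data, gave *FLO100* -5.00 for S3 against S1 of *Δflo8*, -9.64 for *Δflo8* against the wild type at S3 and -9.06 for the interaction, values that depend on the prior count where *FLO100* has 0 reads.

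With the replicate number as a block, *FLO100* at S5 against S1 was 5.02 (limma adjusted p = 0.0465) and *FLO300* at S5 against S3 was 1.91 (adjusted p = 0.00138). For S3 and S5 the numbers share only a name, since the correlations were 0.42, -0.17 and 0.57, and 1 of 3 libraries correlated best with its own number. The block changed no other call of the 3 genes.

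Leaving out each library in turn gave the following ranges of the log2 fold change. S3 against S1 of the wild type ran from 1.55 to 2.83 for *FLO300* and from -0.71 to -0.46 for *FLO200*, and S5 against S1 from 3.32 to 4.51 for *FLO300*. *Δflo8* against the wild type ran from 0.27 to 0.53 for *FLO200* at S1 and from -1.17 to 0.11 for *FLO300* at S3. The interaction ran from -1.50 to -0.23 for *FLO300* and from -6.88 to -3.64 for *FLO100*.

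Mean TPM depended on the reads used. The deposited per-library TPM are scaled to the estimated counts, which hold 5.06% to 6.11% of the reads behind the tables. Their levels are therefore not on the same scale as the other TPM given here. In the deposited per-library TPM, *FLO100* was at 0.561 in *Δflo8* S1, 0 in wild-type S1 and 0 in wild-type S3. *FLO200* was at 144 in *Δflo8* S1, 107 in *Δflo8* S3, 105 in wild-type S1, 79.3 in wild-type S3 and 105 in wild-type S5. *FLO300* was at 196 in *Δflo8* S1, 132 in *Δflo8* S3 and 89.2 in wild-type S1. From the reads less the estimates, *FLO200* was at 3.79, 1.44, 3.46, 1.17 and 0.960 in the same order of groups, and *FLO300* at 1.10, 20.4 and 4.11. With the full transcript length *FLO200* was at 6.76 in *Δflo8* S3. The number of genes called higher was 59 for S3 against S1 of the wild type (34 to 116 over the alternatives), 5 for S5 against S1 (0 to 13) and 17 in *Δflo8* (14 to 39). Depth limits *FLO100*, with 0 to 10 reads in every library of S1 and of *Δflo8*.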

Other observations

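PP7435_Chr4-0528 and PP7435_Chr2-1259, among the 5 genes most like *FLO300* and *FLO100*, moved over a far smaller range than these. PP7435_Chr4-0528 had 13.9, 13.8 and 15.3 TPM at wild-type S3, against 10.1, 9.35 and 9.51 TPM at S1, and rose by 0.60 ± 0.09 on the log2 scale (limma adjusted p = 0.00319). PP7435_Chr2-1259 had 28.8, 27.0 and 30.1 TPM in *Δflo8* S3, against 33.7, 35.1 and 35.9 TPM in wild-type S3 (-0.35 ± 0.06, limma adjusted p = 0.000360), and its response to the growth rate differed between the strains by -0.33 ± 0.09 (adjusted p = 0.0484).

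PP7435_Chr3-1236, 10 tags after *FLO200*, changed in opposite directions in the strains in the reads behind the tables, and both changes passed (limma adjusted p = 0.00407 in *Δflo8* and 0.00162 in the wild type). It had 7.57, 3.96 and 5.73 TPM in *Δflo8* S3, against 2.20, 2.72 and 1.85 TPM in *Δflo8* S1, and 6.32, 6.11 and 6.60 TPM in wild-type S3, against 13.5, 13.2 and 21.1 TPM in wild-type S1. The interaction was 2.42 ± 0.32 (limma adjusted p = 0.00112), while that of *FLO200* was -0.13 ± 0.20. The stranded estimates held 97.9% of its reads in *Δflo8* S3, 94.3% in *Δflo8* S1, 41.5% in wild-type S3 and 9.43% in wild-type S1. The reads left after subtracting them had means of 0.158 TPM in *Δflo8* S3, against 0.136 TPM in *Δflo8* S1, and of 3.90 TPM in wild-type S3, against 15.3 TPM in wild-type S1.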
